A study of Mus musculus with 24 samples.

Results

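The translation initiation factors are the genes whose annotated symbol starts with Eif1, Eif2, Eif3, Eif4, Eif5 or Eif6. Of 19057 gene symbols on the array, 50 met this rule, with 95 probes. A probe was kept when its signal was above the negative control beads (detection p under 0.05) on at least 6 of the 24 arrays, and 40 of the 50 factors had such a probe, among 10759 genes tested. The samples were spermatids of mice aged 7 weeks, measured as total RNA on Illumina bead arrays. The 4 groups were wild-type round spermatids, knockdown round spermatids, wild-type condensing spermatids and knockdown condensing spermatids, with 6 arrays each. The genotype label describes a post-meiotic knockdown of CBP together with p300, and no allele, driver or agent is given in the sources used here. Both proteins acetylate histones and help transcription factors to activate genes. Whether the replicates of a group came from separate animals is not stated in the labels. The p-values therefore cover the spread among these arrays, which may be technical.

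Initiation factors bring the small ribosomal subunit to a messenger RNA and set it at the start codon. eIF4E binds the cap, eIF4G links it to the helicase eIF4A, and eIF4E-binding proteins block that link. eIF2 carries the initiator tRNA as a ternary complex with GTP, eIF2B recharges eIF2, eIF2 kinases inhibit that step, and eIF3 is the large scaffold on the small subunit. Spermatids store many messenger RNAs for later use, because transcription stops as their chromatin condenses, and much of their late protein output is set at translation.

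Promoter sequences are shown for those of the 3 largest rises and 3 largest falls in wild type that had a printable entry, since these factors lead the stage comparison. They are the 250 bases before the annotated gene start, 5′ to 3′ on the strand of the gene, from RefSeq on build GRCm38.p6. The start used in spermatids is not given in the sources used here. Capitals mark matches to the letters searched, read on both strands. Eif3k, at chr7:28981889-28982138 on the minus strand, rose and holds a 10-base NRF1 motif, the longer run of capitals, and a CCAAT box, read here as ATTGG. Eif3d, at chr15:77970825-77971074 on the minus strand, fell and holds the ETS motif CCGGAAGT, read here as ACTTCCGG. Eif4a3, at chr11:119300044-119300293 on the minus strand, fell and holds no match.
Eif3k: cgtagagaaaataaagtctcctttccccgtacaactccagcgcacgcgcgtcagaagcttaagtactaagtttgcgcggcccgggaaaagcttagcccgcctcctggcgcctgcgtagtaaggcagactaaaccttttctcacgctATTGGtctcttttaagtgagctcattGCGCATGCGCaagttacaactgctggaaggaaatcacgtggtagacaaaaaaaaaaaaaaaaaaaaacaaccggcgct
Eif3d: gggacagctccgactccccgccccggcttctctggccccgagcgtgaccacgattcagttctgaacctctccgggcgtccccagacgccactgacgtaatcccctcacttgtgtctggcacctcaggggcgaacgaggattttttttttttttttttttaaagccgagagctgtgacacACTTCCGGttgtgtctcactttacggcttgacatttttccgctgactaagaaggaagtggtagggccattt
Eif4a3: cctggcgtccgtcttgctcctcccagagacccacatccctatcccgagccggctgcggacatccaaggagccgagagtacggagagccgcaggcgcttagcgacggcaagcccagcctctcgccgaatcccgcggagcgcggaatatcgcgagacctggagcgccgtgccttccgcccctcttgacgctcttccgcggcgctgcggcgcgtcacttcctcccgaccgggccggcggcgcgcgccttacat
In Eif3k the NRF1 match began 78 bases and the CCAAT box 104 bases before the gene start. In Eif3d the ETS match began 71 bases before it.

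A promoter entry existed for 31 of the 40 measured factors. A factor was counted when any of its entries matched, while the shares of all entries count each entry, so the measures differ. The ETS letters occurred in 4 of the 31 (12.9%), against 2.88% of all 32851 entries, in Eif3d, Eif3l, Eif4e2 and Eif5a. By the brightest probes in wild type, Eif4e2 was called higher, Eif3d lower, and Eif3l and Eif5a were not called. Other probes of Eif4e2, Eif3l and Eif5a gave other calls, as given below. A link between this motif and the stage differences was not tested. The NRF1 letters occurred in 1 of 31 (3.23%), against 0.782% of all entries. CCAAT boxes were found in 11 of 31 (35.5%) against 33.8%, and the TATA box letters TATAAA in 3 of 31 (9.68%) against 12.4%. The cAMP response element TGACGTCA, whose binding protein recruits CBP, was in 0 of 31, against 1.55% of all entries. A match describes letters in this window and is not a binding site.

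Factors were called between the stages and not between the genotypes. In wild type, 11 of the 40 were higher in condensing than in round spermatids (27.5%, against 30.3% of all genes) and 8 were lower (20%, against 33.8%), at a limma adjusted p under 0.05. In all, 47.5% of the measured factors were called, against 64.2% of all genes. Their median log2 difference was -0.04, against -0.03 for all genes, and their median absolute difference was 0.31, against 0.49. At least 2-fold rises were seen in 4 factors and 2-fold falls in 0, and these counts depended on the processing. With arrays scaled to the median of all probes 1 factor rose and 5 fell by at least 2-fold. Without background correction 1 rose and 0 fell. The share of all genes is not given for these 2-fold counts, so nothing is read from them. In the knockdown, 12 were higher (30%, against 30.5% of all genes) and 8 lower (20%, against 32.4%), so that 50% were called, against 62.9% of all genes. Called the same way in both genotypes were 14 of the 40 (35%), against 55.5% of all genes: 9 higher and 5 lower. No factor was called in opposite directions, and 37 of 40 had the same sign in both genotypes, counts given without a share of all genes.

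**Figure D1:**
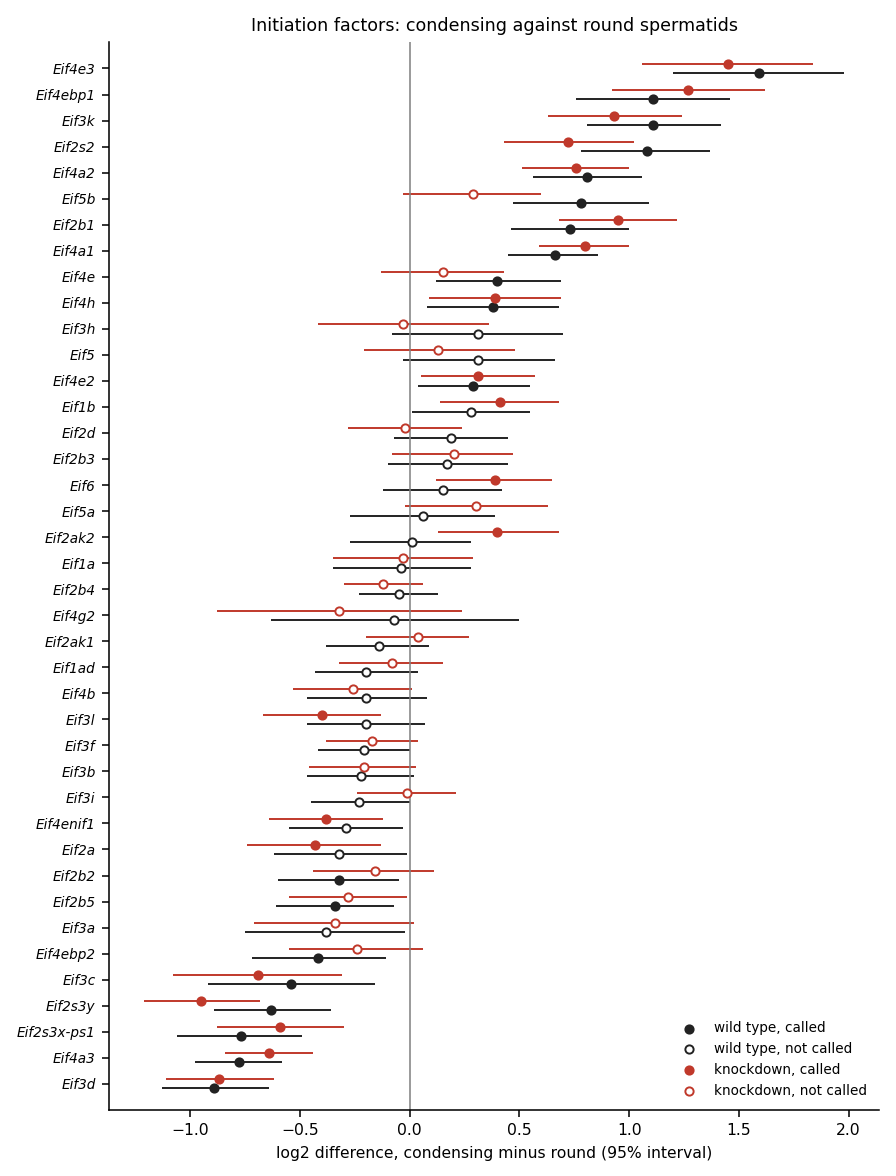
Log2 difference of condensing minus round spermatids (x axis) for the 40 measured initiation factors (y axis), in wild type (black) and knockdown (red), with 95% intervals from limma; filled points had an adjusted p under 0.05. Eif4e3 stands highest at 1.59 and Eif3d lowest at -0.89 in wild type, and most factors lie near 0.

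Markers of other cells moved with the stage. Summed intensities of Sertoli cell markers ran from 1428 to 1967 on wild-type round arrays and from 14154 to 17487 on wild-type condensing arrays, and 9 of 9 measured markers were higher there. Of the same list, Amh, Gata1, Gata4 and Fshr had no kept probe. Summed erythroid markers ran from 409 to 1389 and from 50348 to 60866 on the same arrays, with 5 of 5 higher. The knockdown sums ran from 1310 to 2700 and from 16899 to 18373 for Sertoli and from 525 to 2051 and from 59106 to 69359 for erythroid markers. In wild type, macrophage and leukocyte markers were higher in 10 of 11, stromal in 7 of 8, endothelial in 5 of 6 and Leydig cell markers in 2 of 3. Of 7 spermatocyte markers 5 were lower and 1, Sycp1, was higher there (1.08, limma adjusted p 0.000402). Ptprc, Tyrobp and Cd53 (leukocytes), Tagln, Col1a1 and Col3a1 (stroma) and Pecam1 and Tie1 (endothelium) had no kept probe. The same held for Star, Hsd3b1 and Hsd3b6 (Leydig cells) and Sycp3, Hormad1 and Dmc1 (spermatocytes). Spermatid markers were detected on all arrays for 10 of 10 genes. In wild type 3 of them were higher and 5 lower in condensing spermatids, from Tnp2 at 0.96 to Zpbp at -1.32. The part of other cells in the factors' stage differences was not tested. In such bulk samples, fewer cells of a type and less RNA per cell cannot be told apart.

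Across the arrays, 15687 to 18411 of 45281 probes were detected, and the log2 values of arrays in a group correlated at 0.966 to 0.9942. Wild-type round array 3 and knockdown round arrays 8 and 10 were least like the other arrays of their group, with median correlations of 0.977, 0.982 and 0.976, against 0.987 to 0.992 for the other 21 arrays. Array 3 was the highest or lowest of its group for 30 of the 40 factors. Without these 3 arrays, 12 factors were called higher and 12 lower in wild type (31.8% and 35.8% of all genes). In the knockdown the counts were 13 and 11 (30.5% and 33% of all genes).

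**Figure D2:**
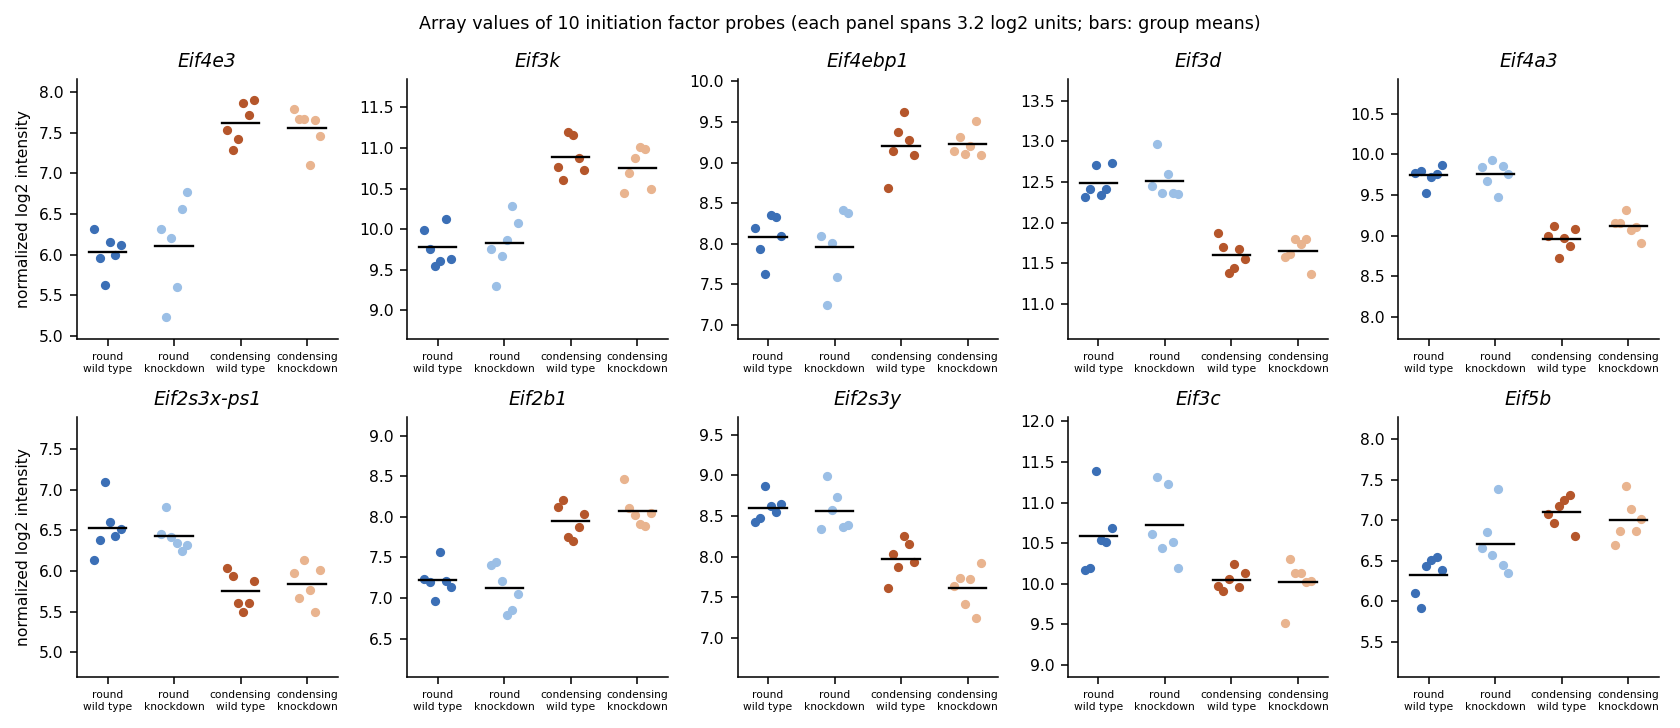
Normalized log2 intensity (y axis) of 10 initiation factor probes on each of the 24 arrays, by group (x axis), with bars at group means; every panel spans the same 3.2 log2 units. Condensing arrays of both genotypes lie above the round arrays for Eif4e3, Eif3k, Eif4ebp1 and Eif2b1, and below them for Eif3d, Eif4a3, Eif2s3y and Eif2s3x-ps1.

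Among the cap-binding and scaffold proteins, Eif4e3 showed the largest rise of all members. Eif4e3, a divergent relative of the cap-binding protein, had log2 intensities from 5.63 to 6.32 (median 6.06) on wild-type round arrays and from 7.29 to 7.9 (median 7.63) on wild-type condensing arrays. On knockdown arrays it ran from 5.23 to 6.77 (median 6.26) in round and from 7.11 to 7.79 (median 7.66) in condensing spermatids. The stages did not overlap in either genotype. The rise was 1.59 ± 0.19 (standard error) on the log2 scale in wild type, 3.02-fold, with a limma adjusted p of 3.05e-08, and 1.45 ± 0.19 in the knockdown, with 1.63e-07. A dimmer Eif4e3 probe rose by 0.39 in wild type, with an adjusted p of 0.0374 over single probes, and stood at 0.06 in the knockdown. Without background correction the rise of the brighter probe was 0.76.

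The other cap-binding genes changed less. Eif4e2, the homologue that binds the cap without eIF4G, rose by 0.29 ± 0.13 in wild type (limma adjusted p 0.0431) and by 0.31 ± 0.13 in the knockdown (0.0342). Without wild-type round array 3 and knockdown round arrays 8 and 10 it was at 0.12 in the knockdown (0.239). Its other kept probes were at -0.11 and 0.21 in wild type, neither called, and the mean of its probes was at 0.13 (0.217), which ends the wild-type call. Eif4e, the main cap-binding protein, was called higher in wild type, by 0.40 ± 0.14 (adjusted p 0.0119), but its probe was above background on 1 of 6 wild-type round and 4 of 6 wild-type condensing arrays. In the knockdown it stood at 0.15 ± 0.14 and was not called. Eif4g2, a scaffold that lacks the eIF4E site, was at -0.07 ± 0.27 by its brightest probe. That probe read from 9.25 to 11.32 (median 9.7) on wild-type round arrays and from 9.71 to 9.91 (median 9.76) on wild-type condensing arrays, so the round range held the whole condensing range. The highest wild-type round value, 11.32, came from array 3, and the 2 highest knockdown round values, 11.29 and 10.66, from arrays 10 and 8. Another Eif4g2 probe was higher in condensing spermatids, by 0.52 with an adjusted p of 0.00238 over single probes.

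Eif4e3 also changed relative to Eif4e2 within arrays. This comparison cancels a factor common to all probes of an array, but not the effects of background correction or quantile normalization. It used the brightest probe of each gene. The dimmer Eif4e3 probe, whose stage difference was 0.39 in wild type and 0.06 in the knockdown, was not compared in this way. The log2 difference of Eif4e3 minus Eif4e2 rose by 1.30 between the wild-type stages, from -5.27 ± 0.13 (SD, n = 6) to -3.97 ± 0.30, and by 1.14 in the knockdown. The exact permutation p was 0.00216 in each genotype, the smallest that 6 arrays against 6 can give, and 0.00433 after Benjamini-Hochberg adjustment over 10 tests. The comparisons with Eif4e were among the 10 tests, but its probe was above background on 10 of 24 arrays, and nothing is read from them. The starting values compare different probes and say nothing of relative abundance. Without background correction the changes of Eif4e3 minus Eif4e2 were 0.48 and 0.38, with adjusted exact p of 0.00722 and 0.00433. With arrays scaled to the median of all probes these changes were 1.11 and 0.99, each with an adjusted exact p of 0.00433. Without wild-type round array 3 and knockdown round arrays 8 and 10, an alternative chosen after seeing the data, they were 1.31 and 0.98, each with an adjusted exact p of 0.00952.

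**Figure D3:**
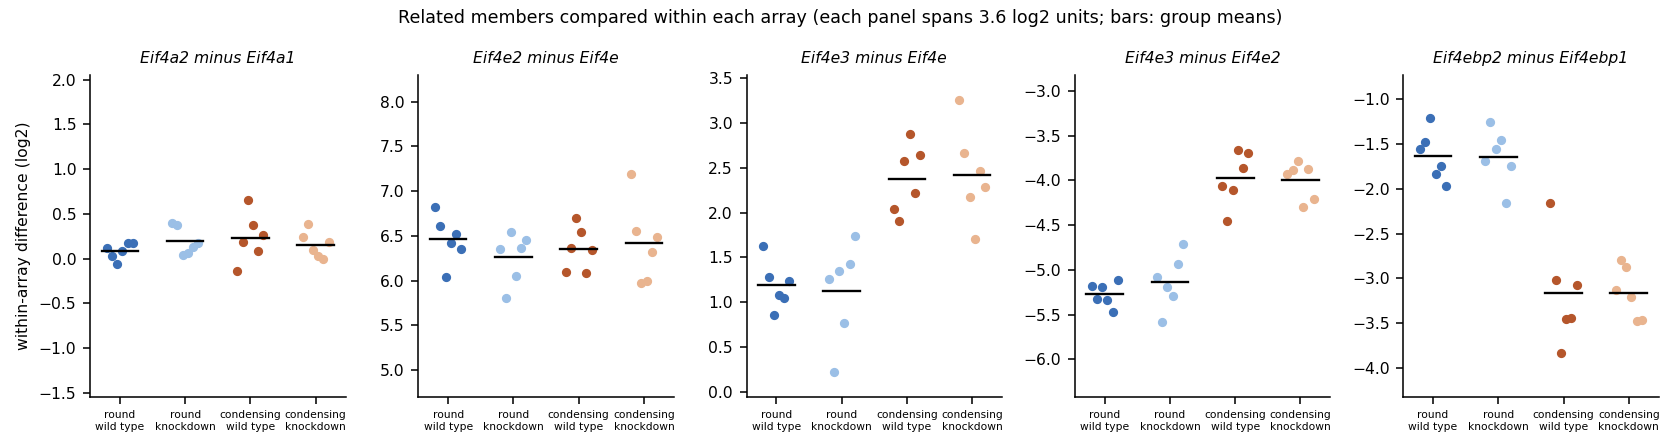
Log2 difference between related initiation factors within each of the 24 arrays (y axis), by group (x axis), with bars at group means; every panel spans 3.6 log2 units. The condensing arrays lie above the round arrays where Eif4e3 is compared with Eif4e2, below them where Eif4ebp2 is compared with Eif4ebp1, and among them for Eif4a2 minus Eif4a1; the panels with Eif4e rest on a probe above background on 10 of 24 arrays.

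The eIF4E-binding proteins went in opposite directions in wild type. Eif4ebp1, which keeps eIF4E from the scaffold, read from 7.63 to 8.35 (median 8.15) on wild-type round and from 8.69 to 9.62 (median 9.21) on wild-type condensing arrays. Its knockdown values ran from 7.24 to 8.41 (median 8.05) and from 9.09 to 9.51 (median 9.17). The stages did not overlap in either genotype, and the rise was 1.11 ± 0.17 in wild type, 2.16-fold (limma adjusted p 2.33e-06), and 1.27 ± 0.17 in the knockdown (2.65e-07). Eif4ebp2, its relative, ran from 6.13 to 6.64 (median 6.48) in wild-type round and from 5.54 to 6.53 (median 6.07) in wild-type condensing spermatids, which overlap. It fell by 0.42 in wild type, with a standard error of 0.15 (limma adjusted p 0.0154), a call that was lost without wild-type condensing array 15 (-0.32, adjusted p 0.0587), and stood at -0.24 ± 0.15 in the knockdown. Within arrays, Eif4ebp2 minus Eif4ebp1 fell by 1.53 in wild type and by 1.51 in the knockdown, each with an exact permutation p of 0.00216 and 0.00433 after adjustment. Eif4enif1, which carries eIF4E into the nucleus and to RNA granules, was at -0.29 ± 0.13 in wild type (adjusted p 0.05, not called) and fell by 0.38 in the knockdown (0.011), or by 0.22 (0.0288) without wild-type round array 3 and knockdown round arrays 8 and 10.

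Among the helicase and its partners, 3 of 5 were higher and 1 lower in wild type (30.3% and 33.8% of all genes), with the same counts in the knockdown (30.5% and 32.4%). Eif4a1 and Eif4a2, the closely related eIF4A helicases, rose by 0.66 ± 0.10 (limma adjusted p 2.4e-06) and 0.81 ± 0.12 (1.55e-06) in wild type, and by 0.80 and 0.76 in the knockdown. Their messages are similar, and cross-hybridization between their probes was not tested. The difference Eif4a2 minus Eif4a1 changed by 0.15 in wild type (adjusted exact p 0.337) and by -0.04 in the knockdown (0.654). Eif4h, an activator of eIF4A, rose by 0.38 ± 0.15 in wild type (0.0266), and Eif4b, which also activates eIF4A, was at -0.20 ± 0.13 and was not called.

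Eif4a3, the helicase of the exon junction complex, fell. It read from 9.53 to 9.87 (median 9.76) on wild-type round and from 8.73 to 9.12 (median 8.98) on wild-type condensing arrays, with no overlap. Its knockdown values ran from 9.47 to 9.93 (median 9.8) and from 8.91 to 9.31 (median 9.13), again with no overlap. The fall was -0.78 ± 0.10 in wild type, 1.72-fold (limma adjusted p 8.2e-08), and -0.64 ± 0.10 in the knockdown (2.2e-06).

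The ternary complex and its exchange factor held changes in each direction. Eif2s2, the beta subunit of eIF2, read from 5.98 to 6.83 (median 6.1) on wild-type round and from 7.18 to 7.49 (median 7.26) on wild-type condensing arrays, without overlap. In the knockdown it ran from 6.16 to 6.84 (median 6.34) and from 6.8 to 7.41 (median 7.2), which overlap. Eif2s2 rose by 1.08 ± 0.14 in wild type, 2.11-fold (limma adjusted p 2.03e-07), and by 0.72 ± 0.14 in the knockdown (7.3e-05). A dimmer Eif2s2 probe rose by 0.43 in wild type (0.042 over single probes) and was at 0.34 in the knockdown (0.11, not called). Eif2s3y, the gamma subunit encoded on the Y chromosome, read from 8.43 to 8.87 (median 8.59) on wild-type round and from 7.61 to 8.26 (median 7.98) on wild-type condensing arrays. In the knockdown it ran from 8.34 to 8.99 (median 8.48) and from 7.25 to 7.92 (median 7.68). The stages did not overlap in either genotype, and it fell by 0.63 in wild type (standard error 0.13, adjusted p 0.000138) and by 0.95 in the knockdown (3.83e-07). The gamma subunit on the X chromosome, Eif2s3x, was above background on 3 of 24 arrays, all condensing, and was not tested.

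The probe annotated to Eif2s3x-ps1, a processed copy of the X-linked gamma subunit, read from 6.14 to 7.1 (median 6.47) on wild-type round and from 5.5 to 6.03 (median 5.74) on wild-type condensing arrays. On knockdown arrays it ran from 6.25 to 6.79 (median 6.38) and from 5.49 to 6.13 (median 5.87). The stages did not overlap, and the difference was -0.77 ± 0.14 in wild type (limma adjusted p 2.3e-05) and -0.59 ± 0.14 in the knockdown (0.000581). This symbol shares sequence with Eif2s3x and Eif2s3y, so the transcript behind the signal is uncertain.

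Of the eIF2B exchange factor, all 5 subunits were measured. Eif2b1, the alpha subunit, read from 6.96 to 7.57 (median 7.2) on wild-type round and from 7.7 to 8.21 (median 7.96) on wild-type condensing arrays, and from 6.79 to 7.44 (median 7.13) and from 7.89 to 8.47 (median 8.03) in the knockdown. The stages did not overlap, and it rose by 0.73 ± 0.13 in wild type (limma adjusted p 1.96e-05) and by 0.95 ± 0.13 in the knockdown (3.68e-07). Its second kept probe rose as well, by 0.78 in wild type. Eif2b5, the catalytic subunit, fell by 0.34 (standard error 0.13, adjusted p 0.0268) in wild type, and its 3 probes were all called lower. That call was lost without wild-type round array 3 (-0.21, adjusted p 0.105) and without wild-type condensing array 16 (-0.30, 0.0633). Eif2b2, a regulatory subunit, was at -0.32 ± 0.13 (0.0384), a call lost when any of 6 single arrays was left out, namely wild-type round arrays 1 and 2 and wild-type condensing arrays 13, 15, 16 and 18. Its value ran from -0.42 to -0.24 over the 24 omissions. Eif2b3 and Eif2b4 were at 0.17 ± 0.13 and -0.05 ± 0.09. Of the kinases that inhibit eIF2, Eif2ak1, activated when haem is short, was at -0.14 ± 0.11, and Eif2ak2, which senses double-stranded RNA, was at 0.01 ± 0.13 in wild type and rose by 0.40 ± 0.13 in the knockdown (0.0106). That rise was 0.20 and not called (0.202) with arrays scaled to the median of all probes, and 0.12 (0.0191) without background correction. The alternative tRNA delivery factors Eif2a and Eif2d were at -0.32 ± 0.15 (0.0634) and 0.19 ± 0.13 in wild type, and Eif2a fell by 0.43 in the knockdown (0.0124), or by 0.29 (0.0844) without wild-type round array 3 and knockdown round arrays 8 and 10.

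Of the eIF3 subunits, 9 of 12 were measured, and in wild type 1 was higher, 2 were lower and 6 were not called (30.3% of all genes were higher and 33.8% lower). Eif3k, a peripheral subunit, read from 9.55 to 10.12 (median 9.69) on wild-type round and from 10.6 to 11.2 (median 10.83) on wild-type condensing arrays. Its knockdown values ran from 9.3 to 10.28 (median 9.81) and from 10.45 to 11.01 (median 10.79). There was no overlap, and the rise was 1.11 ± 0.15 in wild type, 2.16-fold (limma adjusted p 2.33e-07), and 0.93 ± 0.15 in the knockdown (3.86e-06).

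Eif3d, the subunit that in human cells can itself bind the cap of selected messages, went the other way. It read from 12.31 to 12.73 (median 12.42) on wild-type round and from 11.38 to 11.87 (median 11.61) on wild-type condensing arrays, and from 12.35 to 12.97 (median 12.41) and from 11.37 to 11.8 (median 11.67) in the knockdown. No round array overlapped a condensing array, and the fall was -0.89 ± 0.12 in wild type, 1.85-fold (limma adjusted p 2.45e-07), and -0.87 ± 0.12 in the knockdown (3.63e-07).

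Eif3c, a core subunit, fell by its brightest probe alone. That probe read from 10.17 to 11.39 (median 10.53) on wild-type round and from 9.91 to 10.25 (median 10.02) on wild-type condensing arrays, which overlap. In the knockdown it ran from 10.19 to 11.32 (median 10.57) and from 9.52 to 10.31 (median 10.08). The differences were -0.54 ± 0.19 (limma adjusted p 0.0127) and -0.69 ± 0.19 (0.00181). The wild-type call was lost without wild-type round array 3 (-0.38, adjusted p 0.0503), and the other probe was at 0.21 in wild type. With the mean of both probes the differences were -0.16 and -0.37, and neither was called. Of the rest, Eif3a was at -0.38 ± 0.18 (0.0611) and Eif3b at -0.22 ± 0.12 in wild type, while Eif3l was at -0.20 ± 0.13 in wild type and fell by 0.40 in the knockdown (0.00971), or by 0.22 (0.0429) without wild-type round array 3 and knockdown round arrays 8 and 10. Another Eif3l probe fell in wild type as well, by 0.28 (0.0269 over single probes). Eif3f, Eif3i and Eif3h were at -0.21 ± 0.10, -0.23 ± 0.11 and 0.31 ± 0.19 in wild type, none called, and the Eif3h probe was above background on 14 of 24 arrays. A dimmer probe of Eif3b fell by 0.77 in wild type (0.000243 over single probes).

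Of the start codon factors, Eif5b was called in wild type. Eif5b, the GTPase that joins the ribosomal subunits, read from 5.92 to 6.55 (median 6.41) on wild-type round and from 6.81 to 7.31 (median 7.13) on wild-type condensing arrays, with no overlap. In the knockdown it ran from 6.35 to 7.38 (median 6.62) and from 6.69 to 7.42 (median 6.94), which overlap. It rose by 0.78 ± 0.15 in wild type (limma adjusted p 6.22e-05) and was at 0.29 ± 0.15 in the knockdown (0.103), which became 0.49 and was called (0.00377) without wild-type round array 3 and knockdown round arrays 8 and 10, and 0.42 (0.00915) without knockdown round array 10 alone. The stage differences of the genotypes differed by -0.49 ± 0.22, with an adjusted p of 0.681. Eif1b, a relative of the start codon scanning factor eIF1, was at 0.28 ± 0.13 in wild type (0.0607) and rose by 0.41 ± 0.13 in the knockdown (0.00856). Its rise there was 0.28 and not called (0.115) with arrays scaled to the median of all probes, and 0.21 (0.0487) without wild-type round array 3 and knockdown round arrays 8 and 10. Eif5, Eif1a and Eif1ad were at 0.31 ± 0.17, -0.04 ± 0.16 and -0.20 ± 0.12 in wild type, none of them called. Another kept Eif1ad probe was called lower, at -0.44 (0.00694 over single probes). Eif6, which keeps the large subunit from joining too early, was at 0.15 ± 0.13 in wild type and rose by 0.39 ± 0.13 in the knockdown (0.0112), a call lost with either median scaling, at -0.09 over all probes and 0.24 over kept probes.

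Single genes can be read differently by different probes. Of the 18 factors with at least 2 kept probes, 6 had every probe called the same way in wild type (Eif2b1, Eif2b5, Eif2s2, Eif4a1, Eif4a2 and Eif4e3), 0 had probes called in opposite directions, 5 had probes on both sides of 0 and 5 had none called. Eif5a, which needs the modified residue hypusine to work, was at 0.06 ± 0.16 by its brightest probe in wild type, while the other two kept probes were at 0.71 and 0.84, with adjusted p of 3.68e-05 and 0.000113 over single probes. In the knockdown these probes were at 0.97 and 1.14, and the brightest at 0.30. These values are differences, and levels of different probes cannot be compared.

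**Figure D4:**
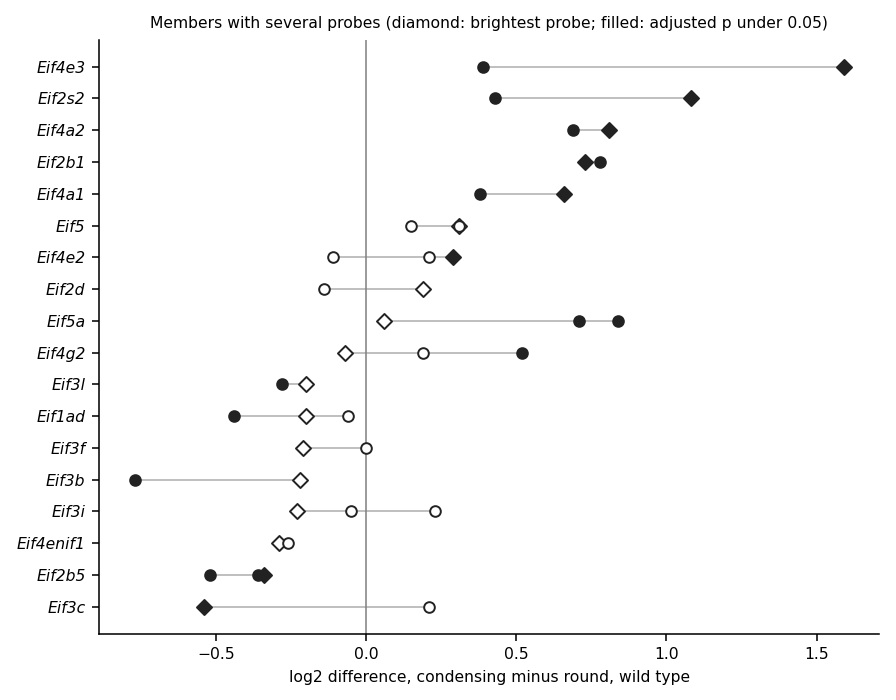
Log2 difference of condensing minus round spermatids in wild type (x axis) for every kept probe of the 18 initiation factors with at least 2 such probes (y axis); the diamond is the brightest probe and filled marks had an adjusted p under 0.05. Probes agree closely for Eif2b1, and those of Eif4e3 and Eif5a lie far apart.

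The wild-type calls were recomputed under 9 other settings. With each array scaled to the median of all probes, the median of all genes moved to -0.31 in wild type. Then 7 factors were called higher and 21 lower (19.4% and 49.3% of all genes). With quantile normalization the counts were 11 and 8 (30.3% and 33.8% of all genes). Of all calls in wild type, the share of rises was 28.3% with this median scaling, against 47.3% with quantile normalization. With the median scaling, Eif2b1, Eif4a1, Eif4e2 and Eif5b were at 0.19, 0.17, 0.03 and 0.34 and Eif4h at -0.11, none of them called. Without the detection filter Eif2b2 and Eif4e2 kept their values and lost their calls (adjusted p 0.0547 and 0.0563). Scaling on the kept probes alone, chosen after seeing the data, moved that median to 0.13 and gave a share of rises of 56.1%. Of the 19 calls in wild type, 12 held in every setting where the gene had a value: Eif2s2, Eif3k, Eif4a2, Eif4e, Eif4e3 and Eif4ebp1 were higher, and Eif2b5, Eif2s3x-ps1, Eif2s3y, Eif3d, Eif4a3 and Eif4ebp2 were lower. Over the same settings Eif4e3 ran from 0.76 to 1.59, Eif3k from 0.66 to 1.11 and Eif4ebp1 from 0.52 to 1.11, while Eif3d ran from -1.03 to -0.59 and Eif4a3 from -1.39 to -0.66. In the knockdown 13 of 20 calls held. The share of all genes that held is not given, so nothing is read from these counts. Leaving out single arrays was not among these settings. It ended the wild-type calls of Eif2b5 (without round array 3 or condensing array 16) and of Eif4ebp2 (without condensing array 15). Eif4e, with a probe above background on 10 of 24 arrays, had no value where detection on all 6 arrays of a group was required.

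The knockdown comparison asked whether these factors changed with the loss of CBP and p300. Crebbp and Ep300 themselves, whose probes may lie outside the targeted sequence, differed by 0.01 ± 0.17 and 0.05 ± 0.17 in round and by -0.11 ± 0.17 and -0.02 ± 0.17 in condensing spermatids, with limma adjusted p from 0.935 to 0.999, so the arrays give no check of the knockdown. In round spermatids 0 of 40 factors were called by limma (0% of all genes), and 1 had an unadjusted p under 0.05 (2.5%, against 3.61% of all genes). In condensing spermatids 0 were called, against 0.539% of all genes (0.26% higher and 0.279% lower), and 2 had an unadjusted p under 0.05 (5%, against 8.81%). The difference between the knockdown effects of the stages gave 0 calls (0.0465% of all genes) and 2 with an unadjusted p under 0.05 (5%, against 6.94%). Array weights and the 8 other settings also gave 0 calls in each of these contrasts.

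The knockdown values of single factors were small. The 95% intervals are those of single factors and form no joint bound over all 40. Their outermost limits for the knockdown level were 71.3% and 170% of wild type in round spermatids, and 61% and 154% in condensing spermatids. The median interval was 0.27 log2 to either side. The limit of 61% was that of Eif3h, whose probe was above background on 14 of 24 arrays. Eif5b stood highest in round spermatids, at 0.39 ± 0.15 (unadjusted limma p 0.0155, adjusted 0.999), with wild-type values from 5.92 to 6.55 and knockdown values from 6.35 to 7.38, which overlap. In condensing spermatids Eif2s3y was at -0.36 ± 0.13 (0.0108, adjusted 0.344), with wild-type values from 7.61 to 8.26 and knockdown values from 7.25 to 7.92. Eif2ak2 was at 0.35 ± 0.13 (0.0148, adjusted 0.394), with wild-type values from 5.22 to 6.15 and knockdown values from 5.51 to 6.16. Genotypes overlapped for each of these factors. The intervals are wide enough that modest effects of the knockdown were not detectable with 6 arrays a group.

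**Figure D5:**
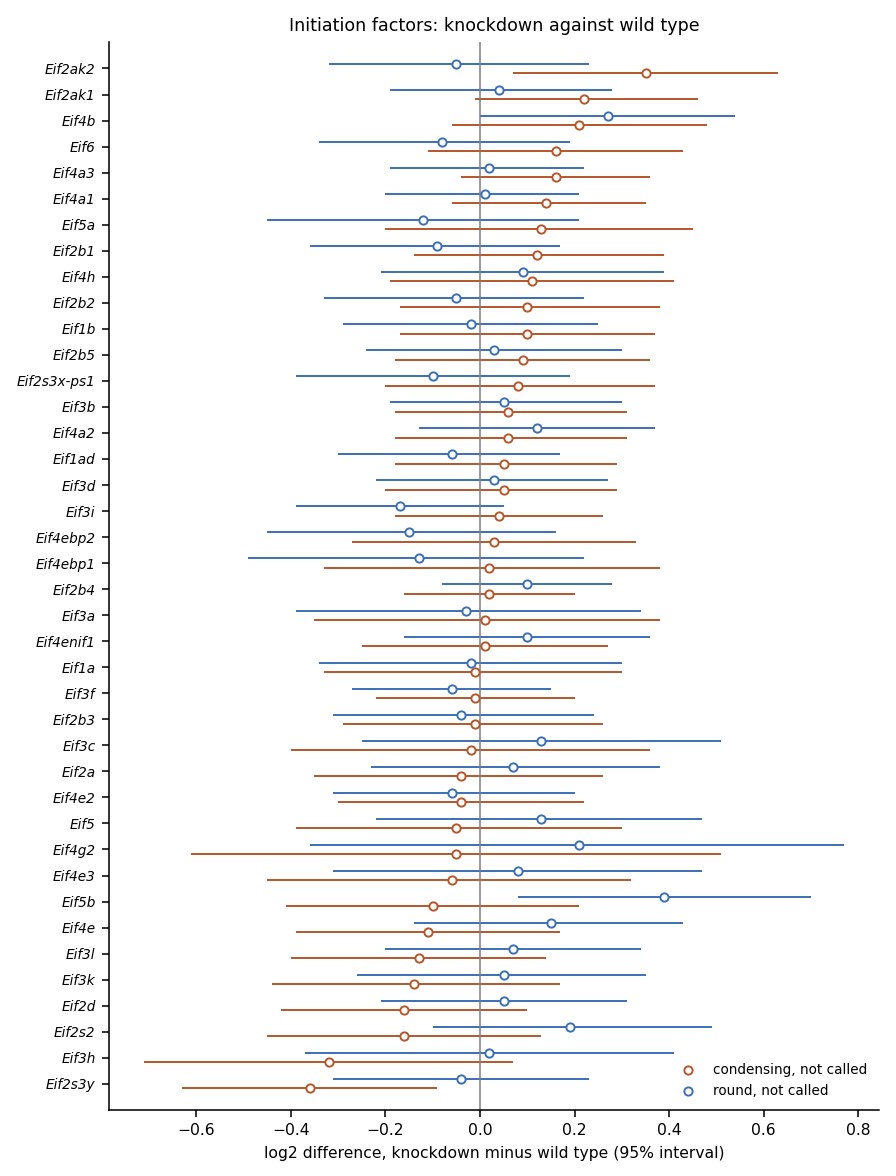
Log2 difference of knockdown minus wild type (x axis) for the 40 measured initiation factors (y axis), in round (blue) and condensing (orange) spermatids, with 95% intervals from limma; open points mark an adjusted p of at least 0.05. All points lie between -0.36 and 0.39, and none is called.

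Other genes of translation, from a list of 50 chosen with earlier results of these data known, were also called in each direction between the stages. Of 41 measured, 15 were higher and 12 lower in wild type (30.3% and 33.8% of all genes), with a median of 0.04, and 16 and 12 in the knockdown (30.5% and 32.4% of all genes). The largest rises were Bzw1, an eIF5 mimic protein, at 1.13 ± 0.18 (limma adjusted p 5.19e-06), and, equal at 2 decimals, Impact and Bzw2, at 0.99 ± 0.15 (2.25e-06) and 0.99 ± 0.10 (1.77e-09). Impact is an inhibitor of the eIF2 kinase Gcn2. The largest falls were Pabpc2, a testis poly(A)-binding protein, at -1.27 ± 0.13 (1.56e-09), and Gspt1, a termination factor, at -1.10 ± 0.11 (1.89e-09). None of the 41 was called between the genotypes in either stage.

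Not kept were 10 of the 50 factors. Eif1ax, Eif2ak3, Eif2ak4, Eif3e, Eif3j1, Eif3m, Eif4e1b, Eif4ebp3 and Eif5a2 were above background on 0 of 24 arrays, and Eif2s3x on 3. A probe at background gives only a bound and does not show that a transcript is absent. Eif1, Eif2s1 and Eif4g1 were not among the 50 symbols, so they were not measured here.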

How the data were processed

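Illumina bead arrays of 24 spermatid samples were analysed from the non-normalized table, which holds, per the file headers, mean bead intensity and a detection p-value per probe. A further table deposited by the authors gives linear intensity with the same array ranks, and its sorted values differ across arrays by a median relative spread of 0.000455. Software is not given in the sources used here. Probe symbols came from the platform annotation, and 1 family member is not analysed here. Following neqc of limma 3.58.1 in R 4.3.3, intensities were corrected by normexp through the detection p-values with an offset of 16, then quantile normalized and logged to base 2. The brightest kept probe stood for a gene. limma fitted 4 group means with moderated spread over 10759 genes, and Benjamini-Hochberg adjustment ran over all genes in a contrast. Related factors were compared within arrays by a two-sided exact permutation test. The procedure was tested on simulated data. Any factor could be named, by role, with array values for, in each contrast, the 3 largest called rises and falls or the largest value. Members, lists and tests were chosen with earlier results of these data known. Alternatives covered background, scaling, probe choice, filter, array weights and left-out arrays. Array numbers 1 to 24 are shared by no groups. The number of arrays limits the precision.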

Additional observations from a re-analysis of the deposited data

Results flagged for a closer look

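Of 160 groups of 6 arrays, 1 for each factor and group, 13 held an array whose gap to its nearest neighbour, as a share of the range, passed the Dixon critical value for 6 values, which chance gives in about 1 of 20 groups. On wild-type round array 3, Eif1b stood at 11.23 log2, with the nearest array of its group at 11.72 and the far end at 11.96. Eif2b5 stood there at 11, next to 10.32 and 9.99. Eif2s2 stood there at 6.83, next to 6.2 and 5.98. Eif3f stood there at 13.08, next to 13.44 and 13.63. Eif4enif1 stood there at 9.23, next to 8.68 and 8.37. Eif4g2 stood there at 11.32, next to 9.78 and 9.25. On knockdown round array 10, Eif2b2 stood at 7.52 log2, with the nearest array of its group at 7.92 and the far end at 8.15. On knockdown round array 8, Eif2s3x-ps1 stood at 6.79 log2, with the nearest array of its group at 6.45 and the far end at 6.25. Eif3l stood there at 12.3, next to 11.62 and 11.26. On knockdown condensing array 19, Eif3a stood at 5.89 log2, with the nearest array of its group at 6.59 and the far end at 6.87. Eif3c stood there at 9.52, next to 10.02 and 10.31. On wild-type condensing array 15, Eif3b stood at 11.48 log2, with the nearest array of its group at 11.27 and the far end at 11.16. On wild-type condensing array 14, Eif4e2 stood at 11.74 log2, with the nearest array of its group at 11.6 and the far end at 11.53. Wild-type round array 3 holds 6 of the 13, knockdown round arrays 8 and 10 hold 2 and 1, and knockdown condensing array 19 holds 2.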

How the results depend on the processing

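The counts of called factors moved by over 1.5 times with scaling and array weights. Median scaling over all probes gave 7 higher and 21 lower in wild type (19.4% and 49.3% of all genes). In the knockdown it gave 7 and 19 (21.4% and 44.7% of all genes). Median scaling over kept probes gave 14 lower in wild type (31.1% of all genes), and array weights gave 13 (36.7%). Leaving out each array in turn gave 9 to 12 higher and 6 to 10 lower in wild type, 11 to 12 and 8 to 11 in the knockdown, and 0 for every knockdown contrast. The shares of all genes over these omissions are not given, so nothing about the factors is read from these ranges. Median scaling turned the sign of Eif2ak2 in wild type to -0.21, of Eif4h to -0.11, of Eif6 to -0.46 (knockdown -0.09), and of Eif5b in the knockdown to -0.05. Scaling on kept probes turned Eif6 in wild type to -0.02. Eif4e2 minus Eif4e in wild type, which rests on a probe mostly at background, turned from -0.11 to 0.17 without background correction and 0.16 in the authors' deposited normalized table. The cause was not tested. No paired analysis was run, because array numbers are not shared between groups. The labels do not say whether round and condensing samples came from the same animals, so a pairing could have been missed. In wild type Eif4e2 lost its call without wild-type round array 2, 3 or 6 or condensing array 13, 14, 15, 17 or 18, and Eif4h without round array 1, 2 or 5 or condensing array 13 or 14, their values running from 0.20 to 0.34 and from 0.30 to 0.51. In the knockdown Eif4e2 lost it without round array 8 or 10 or condensing array 19 or 24 (lowest 0.22), and Eif4h without round array 11 or 12 (0.34).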
